A study of Mus musculus with 12 samples.

Results

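The ATP-binding cassette (ABC) transporter genes of the mouse were examined in RNA sequencing of a pair of mammary tumor cell lines. The members were all protein-coding genes of the series whose symbol is Abc followed by a subfamily letter from a to g and a number, which gave 50 genes out of 52550 in the files, of which 21950 are protein-coding. The lines were D2A1, which keeps proliferating in 3D culture, and D2.OR, which the study uses as a model of tumor dormancy there. The lines were established from different mice, each from its own tumor. Each line was grown in 2D on plastic or in 3D on growth factor-reduced Matrigel (a basement membrane gel), giving the groups D2A1 2D, D2A1 3D, D2.OR 2D and D2.OR 3D with 3 libraries each. The 3D libraries came from pooled wells whose cells were released from the gel before RNA was extracted. No drug, genetic change or other agent is named in the labels of any group, and each line is a single established line. The methods of the study give a 3D medium with horse serum, hydrocortisone, cholera toxin and insulin. For 2D they describe both this medium and one with fetal bovine serum, and which of them the 2D libraries had is not clear. If the media differed, medium and gel cannot be told apart in the culture comparisons, and this was not tested. The labels number the replicates and give each replicate a batch of the same number. Batches 1, 2 and 3 are labelled with sequencing lanes 8, 6 and 7, so batch and lane cannot be told apart. The labels do not say that the replicates were separate cultures, so p-values measure the spread between these libraries.

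ABC proteins bind and split ATP, and most use it to move a substrate across a membrane. The B, C and G subfamilies hold the drug efflux pumps, which carry cytotoxic drugs and their conjugates out of the cell and are best known in tumors for multidrug resistance. Subfamily A and several G members move cholesterol and phospholipids, and most of subfamily D serves the peroxisome. Part of subfamily B works in mitochondria, and the E and F members are not transporters but soluble proteins of translation.

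Expected counts summed to between 47589613 and 73325057 per library (median 61747090). One edgeR quasi-likelihood model over all 12 libraries, with group and batch as terms, tested 16823 genes. It gave the log2 fold changes, standard errors (SE) and adjusted p-values (Benjamini-Hochberg over all tested genes) below. Of the 50 members, 38 were tested. The other 12 were removed by the filter on low counts, reached at most 0.24 TPM (a transcript level scaled for gene length and library size) and 19 counts in any library, and included Abca15 and Abca16 at 0 counts in all libraries. The labelled mammary tumor origin was checked against epithelial markers. Krt18 was present in both lines (263 ± 50.8 TPM in D2A1 2D and 570 ± 117 in D2.OR 2D, SD, n = 3), but Krt8 averaged 1.27 TPM in D2A1 2D against 859 in D2.OR 2D, and Cdh1 and Epcam were below 1 TPM in the mean of both D2A1 groups. The mesenchymal list, in which Vim and Fn1 had the highest levels, summed to 1620 to 3500 TPM in D2A1 and 3590 to 6540 TPM in D2.OR. Of its 8 genes, 5 were called higher and 0 lower in D2.OR in each culture, Vim among them and Fn1 not. Of the 6 tested epithelial markers, 6 were called higher in D2.OR in 2D and 4 in 3D, and 0 lower. Of all tested genes, 25.4% were higher and 24.4% lower in 2D, and 27.7% and 26.1% in 3D. The part of these markers in the line differences was not tested. Of the 6 macrophage markers only Cd68, which is not restricted to macrophages, reached 1 TPM in the mean of a group, with 18.6 TPM in D2A1 2D, 7.3 in D2A1 3D, 3.31 in D2.OR 2D and 5.05 in D2.OR 3D. The defining markers Ptprc and Adgre1 had at most 0.05 TPM in any library, the macrophage list summed to 2.3 to 32.4 TPM, and the endothelial list summed to at most 0.63 TPM. The adipocyte list (Adipoq, Lep, Plin1, Fabp4) summed to 59.3 to 480.0 TPM in D2.OR 3D and to 4.44 to 34.1 TPM in the other groups. The proliferation list summed to 258 to 371 TPM in D2A1 2D, 423 to 725 in D2A1 3D, 198 to 438 in D2.OR 2D and 277 to 480 in D2.OR 3D, with a median of 338 in D2.OR 2D and 477 in D2.OR 3D, and 0 of its 4 genes were called between the cultures of either line. As these are bulk libraries, fewer cells with a transcript and less of it per cell cannot be told apart.

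Abce1, Abcf1 and Abcf2, which are soluble, were the most abundant members in the mean of each group. Abce1, which recycles ribosomes after termination, had the highest mean level over the 12 libraries, while Abcf2 had the higher mean in both D2A1 groups. Abce1 had 165.02, 189.44 and 130.89 TPM in D2A1 2D and 155.18, 153.17 and 172.10 TPM in D2A1 3D. In D2.OR, Abce1 had 136.31, 150.86 and 171.91 TPM in 2D and 160.40, 178.85 and 185.82 TPM in 3D, so the groups overlapped. Together with Abcf1, Abcf2 and Abcf3 it made up 53.5% ± 3.5 of the summed TPM of all members in D2A1 2D, 56.7% ± 2.52 in D2A1 3D, 50.5% ± 2.28 in D2.OR 2D and 51.8% ± 0.153 in D2.OR 3D (SD, n = 3). Means of at least 1 TPM were reached by 24 members in D2A1 2D, 24 in D2A1 3D, 26 in D2.OR 2D and 26 in D2.OR 3D. In total 30 members passed this level in at least 1 group, and 20 remained under it everywhere, among them the insulin-secretion channel subunit Abcc8 (at most 0.17 TPM) and the sterol half-transporters Abcg5 and Abcg8 (at most 0.12 and 0.06 TPM).

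Between the cell lines the ABC genes differed in both cultures, and the largest fitted differences among the tested members, Abcb1b upward and Abcc4 downward in D2.OR, were those of drug efflux pumps in both cultures. D2.OR carried the P-glycoprotein genes Abcb1a and Abcb1b. In D2A1, Abcb1b was nearly silent (at most 0.11 TPM in a library) and Abcb1a was low (0.31 to 1.72 TPM). D2A1 carried more Abcg2 and Abcc4 than D2.OR. In 2D, 26 of the 38 tested members passed an edgeR adjusted p of 0.05, 11 higher and 15 lower in D2.OR, where 49.8% of all tested genes passed (25.4% higher and 24.4% lower). In 3D, 24 members passed, 12 higher and 12 lower, where 53.8% of all tested genes passed (27.7% and 26.1%). The TPM values of the lines did not overlap for 28 members in 2D and 25 in 3D, which was also so for 52.8% and 57.4% of all tested genes. With a fold change of at least 2 in addition, 15 members passed in 2D and 14 in 3D, against 24.8% and 27.4% of all tested genes. The median log2 fold change over the 38 members was -0.24 in 2D and -0.26 in 3D, beside -0.0034 and 0.0005 over all tested genes, and the median absolute log2 fold change was 0.93 and 0.70, beside 0.54 and 0.61. The 2 comparisons use different libraries, and 11 members were called higher and 10 lower in both, with 0 called in opposite directions, beside 20.3%, 17.8% and 0.208% of all tested genes. Scaled by the library total alone, the median of all tested genes moved by -0.16 in 2D and -0.10 in 3D on the log2 scale, and the members called were then 11 higher and 17 lower in 2D and 12 higher and 16 lower in 3D. The number of calls depended on the batches, since in 2D it was 15 without replicate 2 and 17 without replicate 3. Calls lost in 2D without replicate 2 included those of Abca1, Abca3, Abca6, Abca9, Abcb6, Abcb8, Abcc1, Abcd2, Abcd3 and Abcf2, and those lost without replicate 3 were Abca1, Abca3, Abca4, Abca9, Abcb6, Abcc1, Abcc5, Abcd2 and Abcd3. In 3D, 17 of the 24 calls were kept without replicate 2 (Abca3, Abca13, Abcb8, Abcb10 and Abcc1 were among those lost) and 19 without replicate 3 (Abca3, Abcb8, Abcb10 and Abcc1 were among those lost).

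**Figure D1:**
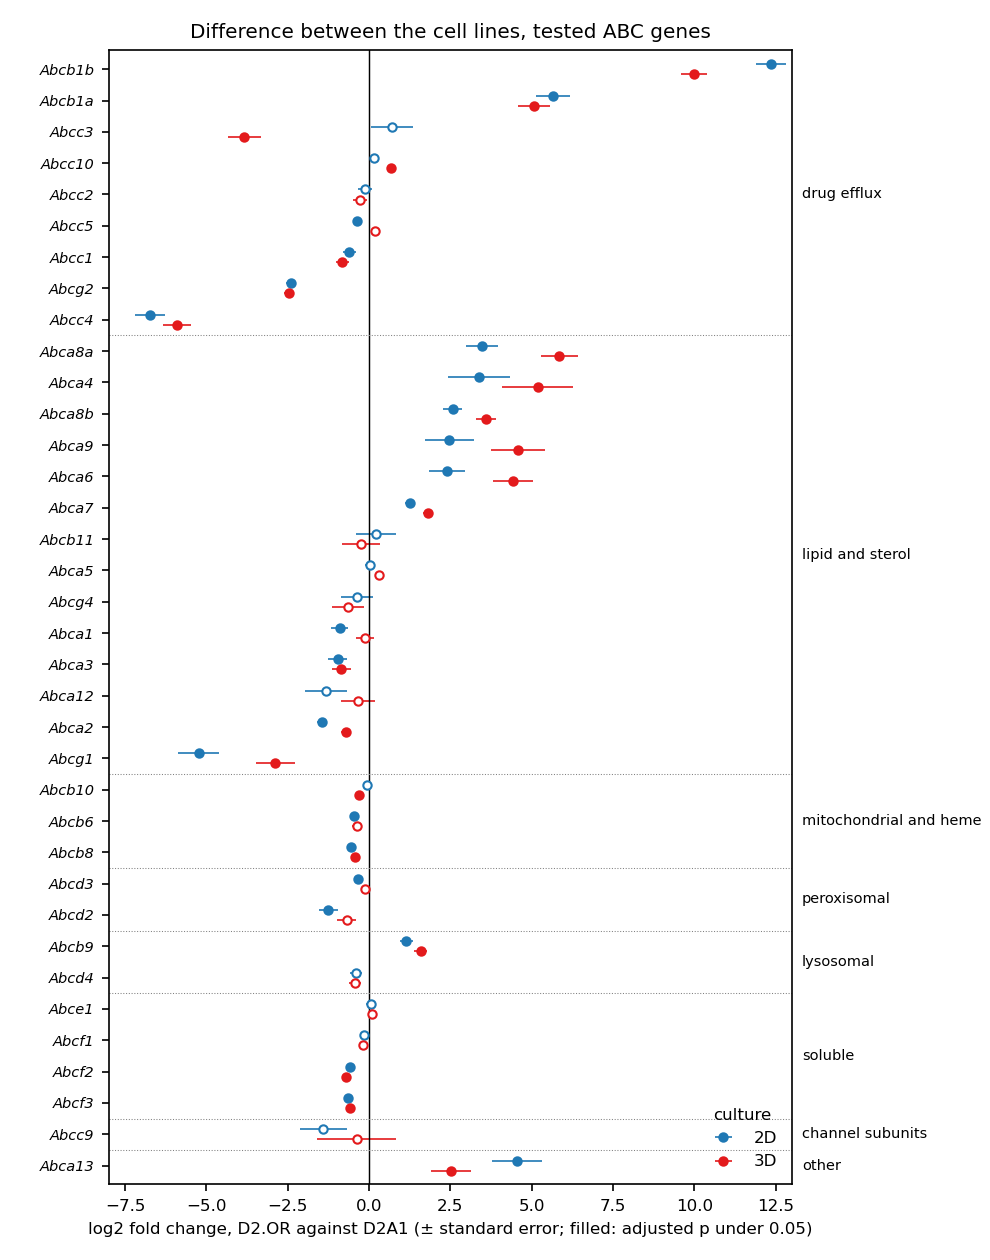
Log2 fold change of D2.OR against D2A1 for tested ABC genes, grouped by role, in 2D (blue) and 3D (red), with the SE as a bar; filled points have an adjusted p under 0.05. Abcb1b (12.36 in 2D and 9.99 in 3D) lies farthest to the right and Abcc4 (-6.74 in 2D and -5.91 in 3D) farthest to the left, while the mitochondrial and soluble members stay within 1 unit of 0 on this log2 scale; both points of Abcb1b rest on few counts in D2A1 (0 to 3 in 2D and 3 to 6 in 3D) and their size depends on the fit.

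Abcb1a and Abcb1b encode the 2 mouse P-glycoproteins, pumps for many hydrophobic drugs. They are neighbors on chromosome 5 (GRCm38), with Abcb1a at 8660077 to 8748575 and Abcb1b at 8798147 to 8866315 (ENSMUSG00000028970.9), both on the plus strand, followed by the bile phospholipid flippase Abcb4 in a stretch of 299 kb that holds 0 other protein-coding genes. Abcb1b had 35.69, 79.19 and 60.33 TPM in D2.OR 2D replicates 1, 2 and 3 and 31.75, 42.59 and 47.55 TPM in D2.OR 3D. In D2A1 it had 0.09, 0.0 and 0.0 TPM in 2D, with 0 to 3 counts a library, and 0.05, 0.11 and 0.03 TPM in 3D. The lines did not overlap in any library. Set against a floor of 3 counts per library, its mean CPM in D2.OR 2D was at least 1960-fold higher than in D2A1 2D. In 3D, where D2A1 had 3 to 6 counts a library, the fitted log2 fold change was 9.99 with an SE of 0.40 (adjusted p = 3.04e-07), and its size depended on the setting, from 5.27 to 10.17. Abcb4, the third gene of this stretch, was not among the genes tested and reached at most 0.24 TPM.

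The promoter sequences of Abcb1b, which was higher in D2.OR, and of Abcg2 and Abcc4, which were lower, all called in both cultures, are shown so that their transcripts can be set beside the DNA in front of them. Each is the 250 bases before the RefSeq start (GRCm38.p6), 5′ to 3′ on the strand of the gene, and capitals mark matches on either strand to a CCAAT box (CCAAT), a GC box (GGGCGG), an E-box (CACGTG) or an AP-1 site (TGANTCA). The regions are chr5:8797897-8798146 (plus strand) for Abcb1b, chr6:58584283-58584532 (plus strand) for Abcg2 and chr14:118706220-118706469 (minus strand) for Abcc4.
Abcb1b: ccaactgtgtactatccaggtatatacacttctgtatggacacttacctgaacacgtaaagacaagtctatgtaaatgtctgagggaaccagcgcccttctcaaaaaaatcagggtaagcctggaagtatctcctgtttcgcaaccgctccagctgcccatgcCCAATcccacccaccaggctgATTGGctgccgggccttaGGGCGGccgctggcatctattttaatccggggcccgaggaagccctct
Abcg2: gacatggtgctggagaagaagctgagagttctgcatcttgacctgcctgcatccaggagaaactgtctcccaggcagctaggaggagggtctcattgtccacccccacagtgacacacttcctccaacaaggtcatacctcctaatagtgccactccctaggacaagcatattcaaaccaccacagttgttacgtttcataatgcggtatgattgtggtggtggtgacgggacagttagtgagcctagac
Abcc4: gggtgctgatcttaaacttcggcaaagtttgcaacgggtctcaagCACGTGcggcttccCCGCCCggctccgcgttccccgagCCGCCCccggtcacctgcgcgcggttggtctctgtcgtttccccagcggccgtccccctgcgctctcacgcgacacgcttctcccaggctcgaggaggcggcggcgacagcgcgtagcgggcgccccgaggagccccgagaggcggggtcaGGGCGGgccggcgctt
The Abcb1b window held 2 CCAAT boxes, starting at -87 on the strand of the gene and at -66 on the opposite strand, and 1 GC box at -48. The Abcc4 window held 3 GC boxes and 1 E-box, and the Abcg2 window held no match to these letters. Among 32851 RefSeq promoters of this length, 33.8% held a CCAAT box, 32.7% a GC box, 6.02% an E-box and 6.75% an AP-1 site. Of the 50 members 38 had an entry, and 11 of them held a CCAAT box, 16 a GC box, 5 an E-box and 0 an AP-1 site. These matches are a description of letters and were not set against binding data.

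Abcb1a, which is the main P-glycoprotein of the blood-brain barrier, had 6.19, 28.70 and 33.55 TPM in D2.OR 2D and 4.19, 19.80 and 25.27 TPM in D2.OR 3D. In D2A1 it had 0.33, 1.72 and 0.34 TPM in 2D and 0.31, 0.86 and 1.14 TPM in 3D. Every D2.OR library was above every D2A1 library, but in D2.OR replicate 1 was the lowest in both cultures. The log2 fold change was 5.66 (SE 0.52, adjusted p = 3.56e-05) in 2D and 5.07 (0.50, adjusted p = 4.96e-05) in 3D. The smallest difference within a batch was 4.96 log2 CPM in 2D and 4.34 in 3D (CPM is counts scaled to the library and not to gene length). D2.OR 2D replicate 1 also stood apart in the epithelial marker Cdh1, with 183.31 TPM against 22.16 and 22.99 TPM in replicates 2 and 3, and the part of this in the Abcb1 levels was not tested. The pair share sequence, since 24.7% of the 31-base stretches of the Abcb1b transcripts also occur in Abcb1a, so the split of reads between them is uncertain. Abcb1b took 79.2%, 63.1% and 51.9% of the counts of the pair in D2.OR 2D and 84.1%, 56.9% and 52.7% in D2.OR 3D. Summed, the pair differed by a log2 fold change of 7.15 (SE 0.47, adjusted p = 4.81e-06) in 2D and 6.53 (0.45, adjusted p = 6.32e-06) in 3D.

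Abcg2, the breast cancer resistance protein, which exports drugs and urate, went the other way. It had 34.44, 26.68 and 34.71 TPM in D2A1 2D and 31.47, 25.86 and 22.43 TPM in D2A1 3D. In D2.OR it had 5.49, 5.53 and 4.53 TPM in 2D and 4.48, 3.33 and 5.11 TPM in 3D. The lowest D2A1 library was above the highest D2.OR library, and the cultures of a line overlapped. The log2 fold change was -2.41 (SE 0.15, adjusted p = 4.43e-06) in 2D and -2.47 (0.15, adjusted p = 3.75e-06) in 3D. Abcg2 passed in both cultures under each of the 25 settings tried, with log2 fold changes from -2.64 to -2.29 in 2D.

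Abcc4, an exporter of cyclic nucleotides, nucleoside analogs and prostaglandins, had 5.27, 13.65 and 8.38 TPM in D2A1 2D and 6.49, 8.22 and 7.64 TPM in D2A1 3D. All 6 D2.OR libraries had between 0.02 and 0.18 TPM, far under the lowest D2A1 library. The log2 fold change was -6.74 in 2D (SE 0.46, adjusted p = 6.02e-06) and -5.91 in 3D (SE 0.43, adjusted p = 8.32e-06). Abcc1, the multidrug resistance protein that exports glutathione conjugates, was the most abundant pump of D2A1, with 39.10, 55.15 and 55.99 TPM in 2D and 33.58, 61.66 and 64.14 TPM in 3D. In D2.OR it had 23.11, 31.99 and 36.64 TPM in 2D and 31.21, 25.82 and 32.62 TPM in 3D. Within each culture the lines did not overlap, with replicate 1 the lowest in D2A1 2D, D2A1 3D and D2.OR 2D. The log2 fold change was -0.61 (SE 0.19, adjusted p = 0.0264) in 2D and -0.83 (0.19, adjusted p = 0.006) in 3D. In 3D the difference was -0.10 log2 CPM in batch 1 and -1.34 and -1.04 in batches 2 and 3, and without replicate 2 its adjusted p was 0.13 in 2D and 0.109 in 3D. The calls of Abcc1 were kept in 17 of 25 alternative settings in 2D and 22 of 25 in 3D.

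The remaining pumps were called in 1 culture or in neither, and for these the interaction of line and culture did not pass. Abcc5, an exporter of cyclic nucleotides, had 25.91, 21.92 and 26.65 TPM in D2A1 2D and 15.09, 18.12 and 16.03 TPM in D2.OR 2D, with no overlap. Its log2 fold change in 2D was -0.36 (SE 0.12, adjusted p = 0.0331), and the within-batch differences in log2 CPM were -0.47, 0.02 and -0.63, so on that scale batch 2 showed no fall, and the call was kept in 14 of 25 alternative settings and lost without replicate 1 or replicate 3. In 3D it had 24.71, 24.67 and 25.92 TPM in D2A1 and 27.01, 29.67 and 30.73 TPM in D2.OR (log2 fold change 0.17, adjusted p = 0.27). Abcc10, which carries taxanes and nucleoside analogs, had 6.01, 4.35 and 5.23 TPM in D2A1 3D and 9.65, 7.99 and 8.03 TPM in D2.OR 3D. These groups did not overlap, and Abcc10 rose by 0.66 on the log2 scale (SE 0.12, adjusted p = 0.00157), while in 2D the difference was 0.14 (adjusted p = 0.364). Abcc3, an exporter of glucuronides and bile salts, was lower in D2.OR in 3D (log2 fold change -3.83, SE 0.51, adjusted p = 0.000289) and is described with the culture comparison. Abcc2, the apical conjugate exporter of hepatocytes, had 0.63 to 1.39 TPM over the 12 libraries and log2 fold changes of -0.12 (adjusted p = 0.671) and -0.28 (adjusted p = 0.308). In 2D its TPM values lay the other way without overlap, at 0.67 to 1.04 in D2A1 and 1.11 to 1.37 in D2.OR, so no direction is given for Abcc2.

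**Figure D2:**
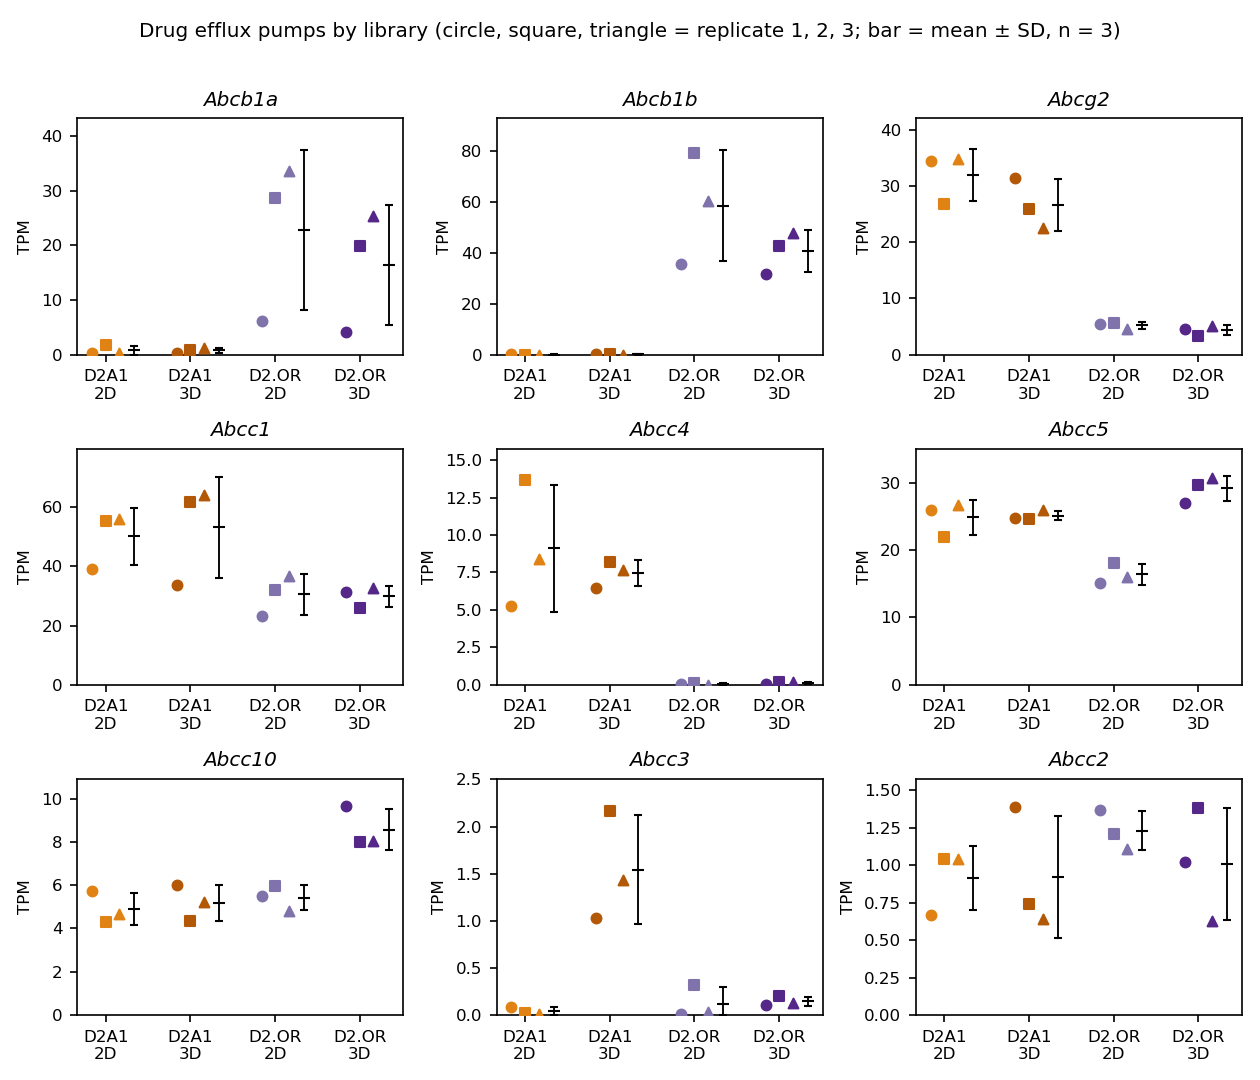
TPM of the 9 drug efflux pumps in each library, by group, on linear axes that start at 0; the symbol gives the replicate and the bar the mean ± SD of 3. Abcb1a and Abcb1b rise well above the axis only in the D2.OR groups. Abcg2 and Abcc4 are high in the D2A1 groups (Abcc4 at 5.27 TPM or more), and Abcc3 stands above 1 TPM only in D2A1 3D.

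Although the single pumps differed strongly, their summed transcript level overlapped between the lines. It was 122.6 ± 10.2 TPM in D2A1 2D, 120.8 ± 13.6 in D2A1 3D, 140.2 ± 41.9 in D2.OR 2D and 130.2 ± 20.4 in D2.OR 3D (SD, n = 3), with the lowest value (92.5) and the highest (171.14) both in D2.OR 2D. Abcb1a and Abcb1b together made up 0.671% ± 0.617 of this sum in D2A1 2D, 0.669% ± 0.293 in D2A1 3D, 56.0% ± 9.43 in D2.OR 2D and 43.0% ± 8.82 in D2.OR 3D. Abcg2 made up 26.2% ± 4.75, 22.5% ± 6.63, 4.02% ± 1.68 and 3.34% ± 0.777 in the same order. The 6 Abcc pumps held 73.1% ± 4.21 and 76.8% ± 6.28 in D2A1 and 39.9% ± 7.89 and 53.7% ± 8.21 in D2.OR. Replicate 1 had the smallest pump sum in each of the 4 groups. Within batches 1, 2 and 3 in 3D, the sum was 109.47, 130.96 and 150.25 TPM in D2.OR against 105.04, 128.64 and 128.6 TPM in D2A1. In 2D the D2.OR sum was the lower in batch 1 (92.5 against 111.62 TPM) and the higher in batches 2 and 3. The difference in this sum was not tested.

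**Figure D3:**
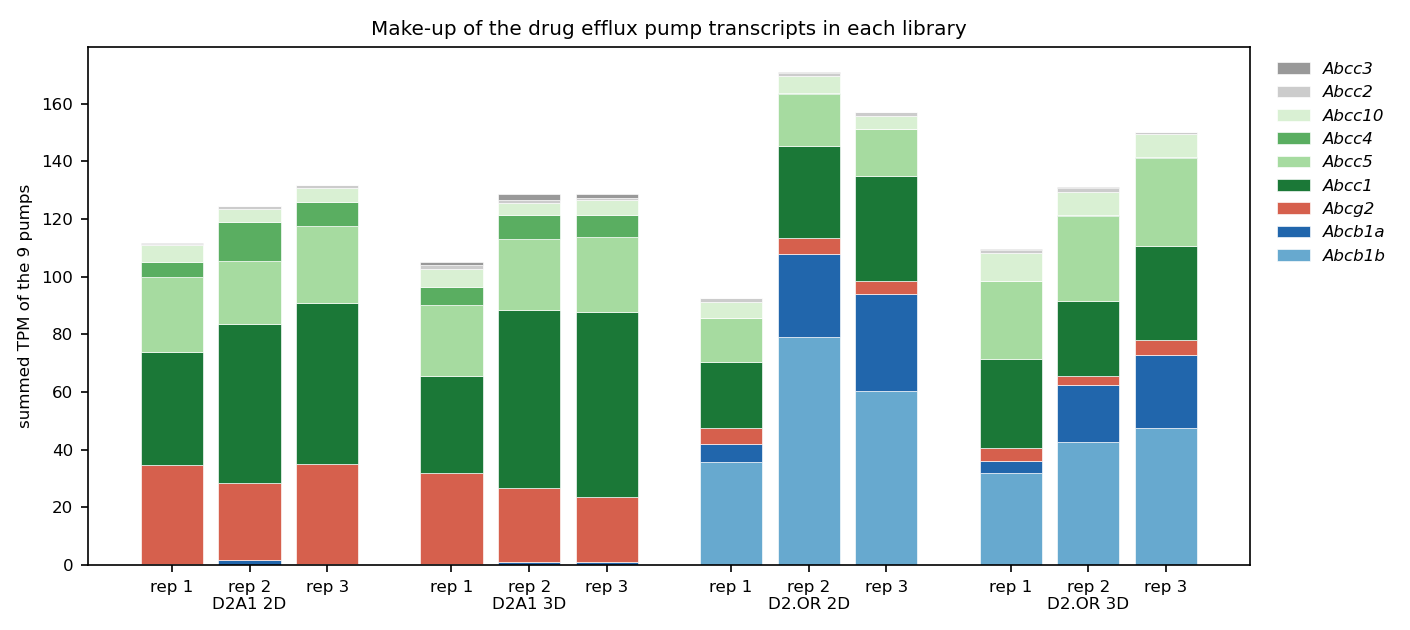
Summed TPM of the 9 drug efflux pumps in each of the 12 libraries, stacked by gene from 0. Bars of both lines reach similar heights, from 92.5 to 171.14 TPM in D2.OR 2D and from 111.62 to 131.8 TPM in D2A1 2D, but blue (Abcb1a and Abcb1b) fills the base of the D2.OR bars and red (Abcg2) that of the D2A1 bars.

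Of the 17 lipid and sterol members, 14 were tested; 6 were higher and 4 lower in D2.OR in 2D (25.4% and 24.4% of all tested genes), and 6 higher and 3 lower in 3D (27.7% and 26.1%). Abcg1, which loads cholesterol onto high-density lipoprotein, had 11.34, 11.36 and 14.87 TPM in D2A1 2D and 0.28, 0.32 and 0.29 TPM in D2.OR 2D. In 3D it had 9.84, 2.13 and 1.89 TPM in D2A1 and 0.44, 0.55 and 0.72 TPM in D2.OR. The lines did not overlap in either culture, although D2A1 3D replicate 1 stood close to the 2D libraries. The log2 fold change was -5.23 (SE 0.63, adjusted p = 0.000177) in 2D and -2.88 (0.59, adjusted p = 0.00291) in 3D.

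Abca7, a phospholipid transporter linked to phagocytosis, was the most abundant of the lipid members over the 12 libraries and was higher in D2.OR. It had 11.51, 11.87 and 16.77 TPM in D2A1 2D against 28.79, 29.72 and 28.06 TPM in D2.OR 2D, and 10.47, 8.64 and 7.78 TPM in D2A1 3D against 31.57, 31.09 and 33.63 TPM in D2.OR 3D. No library of a line reached those of the other. Its log2 fold change was 1.25 (SE 0.15, adjusted p = 0.00017) in 2D and 1.82 (0.15, adjusted p = 1.97e-05) in 3D. Abca2, a lipid transporter of lysosomes and endosomes, had 30.97, 23.20 and 28.18 TPM in D2A1 2D and 11.96, 7.87 and 7.82 TPM in D2.OR 2D. The groups did not overlap in 2D (log2 fold change -1.45, SE 0.14, adjusted p = 5.24e-05), whereas in 3D the value of 21.44 TPM in D2.OR replicate 1 lay above 2 of the D2A1 libraries (log2 fold change -0.71, adjusted p = 0.00238). Abca3, the surfactant lipid transporter of the lung, had log2 fold changes of -0.97 in 2D and -0.85 in 3D (adjusted p = 0.0239 and 0.0351). Its within-batch differences in 2D were 0.11, -1.55 and -1.59 log2 CPM, and D2.OR 2D replicate 1 had 21.44 TPM against 6.34 and 6.89 TPM in the other replicates. In 2D the difference in Abca3 was therefore seen in batches 2 and 3 and not in batch 1, while in 3D the batches gave -0.61, -0.86 and -1.07.

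Abca5, Abca6, Abca8a, Abca8b and Abca9 lie next to each other on the minus strand of chromosome 11 (109932190 to 110337716, GRCm38), a run of 406 kb with 0 other protein-coding genes between them. They are close relatives whose substrates are largely lipids. All except Abca5 were higher in D2.OR in both cultures. Abca8a had 0.22, 0.45 and 0.56 TPM in D2A1 2D against 2.20, 4.01 and 3.32 TPM in D2.OR 2D, and 0.51, 0.07 and 0.09 TPM in D2A1 3D against 3.91, 7.84 and 10.37 TPM in D2.OR 3D. Abca8b had 0.23, 0.73 and 0.56 TPM in D2A1 2D against 1.74, 3.22 and 3.48 TPM in D2.OR 2D, and 0.17 to 0.18 TPM in D2A1 3D against 1.64 to 2.61 TPM in D2.OR 3D. For both genes the lines did not overlap.

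The log2 fold changes were 3.47 and 5.85 for Abca8a (adjusted p = 0.00052 and 5.21e-05), 2.57 and 3.60 for Abca8b (0.000137 and 2.49e-05), 2.39 and 4.42 for Abca6 (0.00635 and 0.000335) and 2.47 and 4.58 for Abca9 (0.022 and 0.00148) in 2D and 3D. Abca6 and Abca9 remained under 1 TPM in the mean of each group. Abca5, at the end of the run, had 5.10 to 8.91 TPM over the 12 libraries with log2 fold changes of 0.02 (adjusted p = 0.894) and 0.31 (adjusted p = 0.0826). Abca8a and Abca8b share little sequence, with 3.16% of the 31-base stretches of Abca8a found in Abca8b, and summed they differed by 2.95 (SE 0.31, adjusted p = 8.09e-05) and 4.71 (0.34, adjusted p = 8.41e-06) on the log2 scale. The low counts of Abca6 and Abca9 in D2A1 leave the size of their fold changes imprecise.

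**Figure D4:**
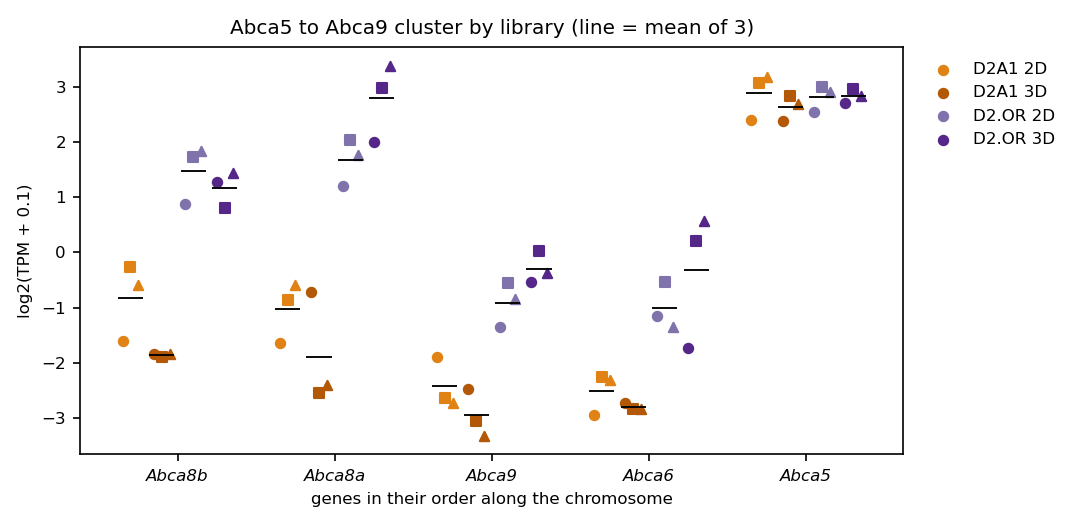
Level of the 5 clustered Abca genes in each library as log2(TPM + 0.1), in their order along the chromosome; the color gives the group, the symbol the replicate and the line the mean of 3. Abca8b, Abca8a, Abca9 and Abca6 are higher in D2.OR (violet) than in D2A1 (orange), while the groups overlap for Abca5, which had 5.10 to 8.91 TPM.

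Of the 4 mitochondrial and heme members, 3 were lower in D2.OR in 2D and 3 in 3D, where 24.4% and 26.1% of all tested genes were lower, and 0 were higher. Abcb6, a porphyrin transporter, was lower in 2D and Abcb10 in 3D. Abcb8, the most abundant of them and lower in both cultures, had 43.61, 35.19 and 29.57 TPM in D2A1 2D against 23.68, 22.21 and 21.18 TPM in D2.OR 2D, and 40.85, 32.84 and 33.38 TPM in D2A1 3D against 25.00, 30.98 and 25.49 TPM in D2.OR 3D. The lines did not overlap, and the log2 fold change was -0.55 (SE 0.14, adjusted p = 0.00997) in 2D and -0.43 (0.14, adjusted p = 0.0279) in 3D. The log2 fold change was -0.45 for Abcb6 in 2D (adjusted p = 0.0296) and -0.30 for Abcb10 in 3D (adjusted p = 0.0336).

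Among the peroxisomal members, Abcd2, a transporter of fatty acids, was lower in D2.OR in 2D, with 0.85, 1.46 and 1.66 TPM in D2A1 and 0.54, 0.61 and 0.37 TPM in D2.OR (log2 fold change -1.26, SE 0.30, adjusted p = 0.00679). The branched-chain acyl transporter Abcd3, the most abundant peroxisomal member, had 54.83, 53.25 and 53.42 TPM in D2A1 2D against 41.35, 37.85 and 40.42 TPM in D2.OR 2D, and 45.96 to 56.69 TPM over the 3D libraries. It was lower in D2.OR in 2D (log2 fold change -0.35, adjusted p = 0.00779) but not in 3D (-0.11, adjusted p = 0.275). The difference in culture dependence of Abcd2 and Abcd3 did not pass as an interaction (adjusted p = 0.48 and 0.336).

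The lysosomal peptide transporter Abcb9 had 1.74, 2.67 and 2.25 TPM in D2A1 2D against 3.88, 4.21 and 3.31 TPM in D2.OR 2D, and 2.05, 1.40 and 1.21 TPM in D2A1 3D against 5.72, 4.04 and 3.66 TPM in D2.OR 3D. Without overlap in either culture, Abcb9 rose by 1.14 (SE 0.20, adjusted p = 0.00138) and 1.59 (0.20, adjusted p = 0.000196) on the log2 scale. Abcd4, the lysosomal cobalamin transporter and the more abundant of the lysosomal pair, had 19.10, 25.25 and 35.92 TPM in D2A1 2D against 17.86, 18.76 and 18.61 TPM in D2.OR 2D, and 21.83, 20.26 and 18.00 TPM in D2A1 3D against 14.26, 14.91 and 17.34 TPM in D2.OR 3D, with log2 fold changes of -0.40 (adjusted p = 0.0908) and -0.44 (adjusted p = 0.0615). Of the soluble members, Abcf2 and Abcf3 were lower in D2.OR in both cultures, with log2 fold changes of -0.59 and -0.71 for Abcf2 and -0.64 and -0.58 for Abcf3. Abce1 differed by 0.04 (SE 0.15, adjusted p = 0.822) and 0.10 (0.15, adjusted p = 0.588) and Abcf1 by -0.14 (adjusted p = 0.194) and -0.18 (adjusted p = 0.105). The large, little-studied Abca13 and the retinoid flippase Abca4 were called higher in D2.OR in both cultures, at no more than 0.17 and 1.06 TPM. Abca13 had 0.17, 0.04 and 0.03 TPM in D2.OR 2D and 0.06 to 0.07 TPM in D2.OR 3D, against 0.0 to 0.07 TPM in D2A1. Abcc9, a subunit of ATP-sensitive potassium channels, reached at most 0.09 TPM and was not called.

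Few members were called between the cultures, as were few of all tested genes. Of the tested members 5.26% were called in D2.OR and 7.89% in D2A1, beside 1.62% and 3.48% of all tested genes. The median absolute log2 fold change of the members was 0.33 in D2.OR and 0.30 in D2A1, beside 0.22 and 0.32 over all tested genes. The TPM values of the cultures did not overlap for 13 tested members in D2.OR and 7 in D2A1, against 20.6% and 24.8% of all tested genes. In D2.OR, 2 members passed, both higher in 3D (1.62% of all tested genes passed, 0.838% higher and 0.785% lower). Abcc5 went from 15.09, 18.12 and 16.03 TPM in 2D to 27.01, 29.67 and 30.73 TPM in 3D, and Abcc10 from 5.48, 5.95 and 4.80 TPM to 9.65, 7.99 and 8.03 TPM. Neither gene overlapped between the cultures. Both rose by 0.68 on the log2 scale (SE 0.12, adjusted p = 0.0355 for Abcc5 and 0.0346 for Abcc10). Within batches 1, 2 and 3 the difference was 0.59, 0.58 and 0.89 log2 CPM for Abcc5 and 0.65, 0.55 and 0.84 for Abcc10, so each batch showed the rise. Abcc5 differed by 0.15 (adjusted p = 0.42) and Abcc10 by 0.16 (adjusted p = 0.396) in D2A1, and the difference between the lines did not pass (interaction 0.53 and 0.52, adjusted p = 0.181 and 0.183). The number called was 5 without replicate 1 (8.38% of all tested genes then passed) and 0 without replicate 2 or replicate 3, and it was 0 or 1 without D2.OR 2D replicate 1, 2 or 3, D2.OR 3D replicate 1, 2 or 3, D2A1 2D replicate 2 or D2A1 3D replicate 2 or 3. The direction of both genes was the same in all of these fits. The summed level of the adipocyte markers also rose in D2.OR 3D, from 4.44 to 26.9 TPM in 2D to 59.3 to 480.0 TPM, and its part in these differences was not tested.

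In D2A1, 3 members passed, Abcc3 higher and Abca1 and Abca8b lower in 3D (3.48% of all tested genes passed, 1.37% higher and 2.12% lower). Abcc3 had 0.09, 0.02 and 0.01 TPM in D2A1 2D, with 2 to 3 counts a library, and 1.03, 2.17 and 1.43 TPM in D2A1 3D, with 32 to 110 counts. No library of the cultures overlapped, and Abcc3 was at least 18.9-fold higher in 3D against a floor of 3 counts per library (adjusted p = 0.0184). In D2.OR it had 0.01 to 0.32 TPM in 2D and 0.11 to 0.20 TPM in 3D, with 2 to 5 counts a library. The interaction of line and culture was -4.53 (SE 0.84, adjusted p = 0.0892). These counts leave its size, and that of the line difference of Abcc3 in 3D, imprecise. Abca1, which exports cholesterol to apolipoprotein A-I, had 16.47, 22.40 and 23.38 TPM in D2A1 2D and 11.30, 7.39 and 5.27 TPM in D2A1 3D. The cultures did not overlap, and Abca1 fell by 1.34 on the log2 scale (SE 0.27, adjusted p = 0.043). In 2D it was also lower in D2.OR, with 9.74, 12.65 and 10.05 TPM (log2 fold change -0.91, SE 0.27, adjusted p = 0.0199). Abca8b fell by 1.35 in D2A1 3D (SE 0.31, adjusted p = 0.0489), from 0.23, 0.73 and 0.56 TPM to 0.18, 0.17 and 0.18 TPM, and summed with its relative Abca8a it did not pass (-1.37, adjusted p = 0.0512).

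For Abca1, Abcg1, Abca8a and Abcc3 the difference between the cultures of D2A1 was smaller in batch 1 than in batches 2 and 3. In log2 CPM it was -0.52, -1.56 and -2.09 for Abca1, -0.18, -2.23 and -2.82 for Abcg1, 0.09, -2.47 and -2.42 for Abca8a, and 2.38, 4.41 and 3.79 for Abcc3 in batches 1, 2 and 3. The proliferation marker Mki67 also had its smallest difference in batch 1 (0.29, 1.60 and 1.91), and its part in the result was not tested. Without replicate 1, 19 members were called in this comparison by edgeR, 6 higher and 13 lower in 3D, where 36.3% of all tested genes passed (17.4% higher and 18.9% lower). Of the 14 lipid and sterol members, 9 were then lower and 0 higher, among them Abca1 (log2 fold change -1.83, SE 0.16, adjusted p = 0.000458), Abcg1 (-2.53, 0.19, adjusted p = 0.000296) and Abca8a (-2.63, 0.34, adjusted p = 0.00144). Without D2A1 2D replicate 1 the number was 8 and without D2A1 3D replicate 1 it was 10, with no share of all tested genes given here. The number was 0 without replicate 2 or 3, or without any of D2A1 2D and D2A1 3D replicates 2 and 3. It was 1 without D2.OR 2D replicate 2 or 3 or D2.OR 3D replicate 1, 2 or 3. With 8 libraries and 2 in a group, the fit without replicate 1 rests on less replication than the one over 12 libraries.

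**Figure D5:**
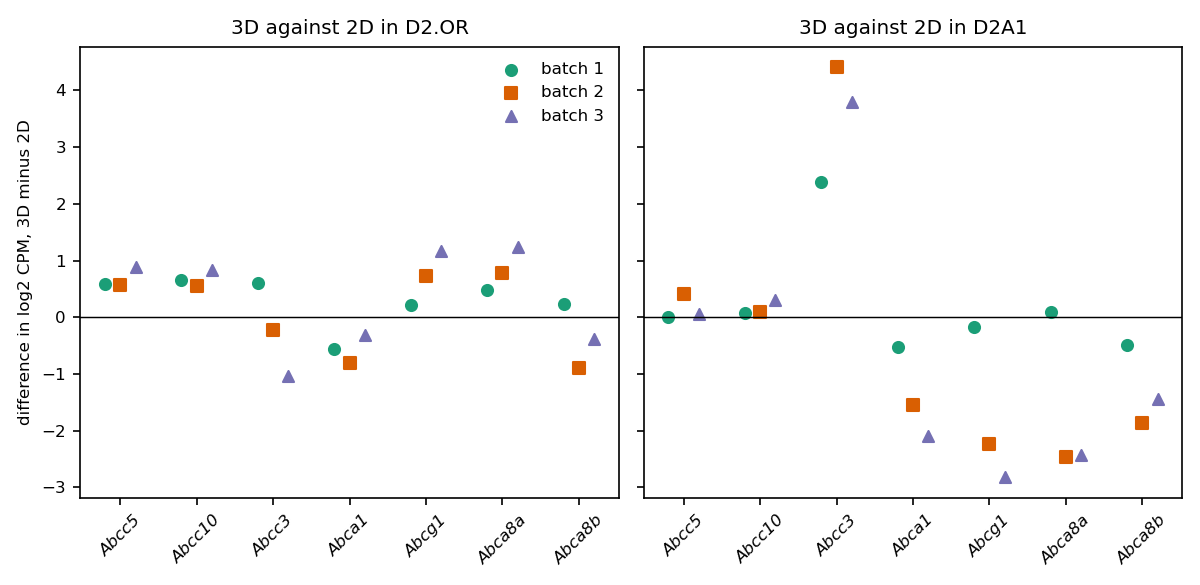
Difference in log2 CPM between 3D and 2D within batches 1, 2 and 3 for 7 ABC genes, in D2.OR (left) and D2A1 (right), with a line at 0. In D2.OR, Abcc5 and Abcc10 lie between 0.55 and 0.89 in all batches, and in D2A1 the batch 1 points of Abca1, Abcg1 and Abca8a lie nearer to 0 than those of batches 2 and 3.

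The interaction of line and culture was passed by 0 members with edgeR (0.0238% of all tested genes passed). The likelihood-ratio test of DESeq2 called 5 (5.81% of the genes it gave an adjusted p). Without replicate 1, 9 members passed, 6 with a positive interaction (the signed log2 change from 2D to 3D was higher in D2.OR than in D2A1) and 3 with a negative one, where 17.8% of all tested genes passed (9.17% and 8.64%). The number of members was 4 without D2A1 2D replicate 1 and 4 without D2A1 3D replicate 1, with no share of all tested genes given here. The 6 were all lipid and sterol members (Abca1, Abca2, Abca6, Abca8a, Abca9 and Abcg1), with Abcg1 at 3.51 (SE 0.30, adjusted p = 0.00236) and Abca8a at 3.66 (0.40, adjusted p = 0.00329). The 3 were the pumps Abcb1b, Abcc1 and Abcc3. Abcb1b and Abcc3 were at 3 counts or fewer in every D2A1 2D library, and Abcc3 had 2 to 5 counts in the D2.OR libraries.

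Genes that work with the ABC proteins were taken from lists of 54 genes, of which 49 were tested. Of these 15 were higher and 15 lower in D2.OR in 2D, where 25.4% of all tested genes were higher and 24.4% lower, and 20 were higher and 8 lower in 3D, where the shares were 27.7% and 26.1%. Among 13 tested nuclear receptors and other factors known to control ABC genes, 6 were higher and 1 lower in 2D, and 7 higher and 1 lower in 3D (all tested genes 25.4% and 24.4%, and 27.7% and 26.1%). The largest log2 fold changes upward were those of Pparg (7.105 in 2D and 4.99 in 3D) and Trp53 (6.80 and 5.96). The 1 lower was Ppara in both cultures (-4.42 and -2.13). Pparg had at most 0.83 TPM in D2A1. The part of these factors in the ABC differences was not tested. The xenobiotic receptor Nr1i2, a known activator of Abcb1 genes, was not tested and had at most 0.05 TPM. The bile acid receptor Nr1h4 rose in D2.OR (2.26 in 2D and 4.41 in 3D on the log2 scale, adjusted p = 0.000187 and 5.3e-06) and was higher in D2.OR 3D than in 2D (4.31 to 5.96 against 1.52 to 2.16 TPM, adjusted p = 0.0302).

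Abcg1 and Abca1 are known targets of the oxysterol receptors LXR. Of 9 tested partners of cholesterol efflux and other LXR targets, 3 were higher and 4 lower in D2.OR in 2D, and 4 higher and 2 lower in 3D (the same shares of all tested genes apply). Apoe, an acceptor of exported cholesterol, had 2.45 to 3.01 TPM in D2A1 2D and 33.36 to 69.53 TPM in D2.OR 2D (log2 fold change 4.10, SE 0.37, adjusted p = 3.25e-05), opposite in direction to Abcg1. Among the LXR targets, Mylip was lower in D2.OR in 2D (-1.47, adjusted p = 0.00937), Lpcat3 was higher in both cultures (0.74 in 2D and 0.44 in 3D, adjusted p = 0.000897 and 0.0115), and Srebf1 had 79.36 to 151.85 TPM over the 12 libraries. The receptor Nr1h3 was higher in D2.OR in 3D (1.15, adjusted p = 0.00376).

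Abcc1 and Abcc2 export conjugates made with glutathione. Of 8 genes of glutathione supply and conjugation, 2 were higher and 3 lower in D2.OR in 2D, and 1 higher and 2 lower in 3D, to be read against the same shares. In D2A1, 3 of the 8 were higher in 3D than in 2D (1.37% of all tested genes), in a comparison whose number of called ABC members ranged from 0 to 19 as libraries were left out. Gclm rose by 1.06 (SE 0.12, adjusted p = 0.00955), Gsta4 by 1.06 (0.12, adjusted p = 0.0117) and Gsr by 0.84 (0.18, adjusted p = 0.0453) on the log2 scale. Tap1 and Tap2, ABC peptide transporters of antigen presentation that carry other symbols, had values below 0 for 3D against 2D in each batch of both lines. Tap2 fell by 1.13 in D2A1 (SE 0.22, adjusted p = 0.0404), and the other 3 values did not pass, with Tap2 in D2.OR at 24.98 to 40.36 TPM in 3D against 56.97 to 69.02 TPM in 2D (adjusted p = 0.0612), and Tap1 at -1.47 in D2A1 and -1.18 in D2.OR on the log2 scale (adjusted p = 0.0528 and 0.128). Of the 6 peroxisome partners 1 was higher and 3 were lower in D2.OR in 2D, and 3 were higher and 1 lower in 3D. Of the 6 iron-sulfur and heme partners 0 were higher and 2 lower in 2D, and 2 were higher and 1 lower in 3D, to be read against the shares of all tested genes (25.4% and 24.4% in 2D, 27.7% and 26.1% in 3D). The potassium channel partners Kcnj8 and Kcnj11 were not tested.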

How the data were processed

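The libraries were RNA sequencing of 3 replicates in each of the groups D2A1 2D, D2A1 3D, D2.OR 2D and D2.OR 3D. Per the labels and the methods of the study, the authors checked reads with FastQC 0.11.4, trimmed them with Trimmomatic 0.32, aligned them with STAR 2.5.3 to GRCm38 with GENCODE M15 annotation, and estimated genes with RSEM 1.3.0. The deposited library files hold expected counts (10.7% to 11.8% of the values are not whole), TPM and FPKM, all made by the authors with RSEM. The FPKM values were not used. The deposited TPM table of the series differed from the library files by at most 0.0. It also holds a gene length and an effective length, which belong to no sample. RSEM divides reads shared by related genes, which can move counts between close relatives such as Abcb1a and Abcb1b.

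Expected counts were rounded, filtered with filterByExpr (16823 of 52550 genes kept), scaled by TMM and tested with edgeR 4.0.16 (quasi-likelihood) in R 4.3.3, with a term per group and a block for the batch. An adjusted p under 0.05 was a call. Log2 CPM used a prior count of 2, the floor for a group near 0 was 3 counts per library, and it covers counting error only. The common biological coefficient of variation was 21.2%. Depth ranged from 47589613 to 73325057 expected counts. The batch equals the replicate number in the labels and in the model of the study, which is where the pairing comes from. Deviations of the 18 same-number pairs from their group means correlated at 0.076 to 0.511 (median 0.267), against a median of -0.195 for different numbers. Between batches 2 and 1, 1140 genes differed, and between batches 3 and 1, 1359.

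Members given in full were the 9 drug efflux pumps (at 1 TPM or more in the mean of a group), those called between cultures or in the interaction, those called between the lines with at least a 2-fold change and 1 TPM in the mean of a group, and the most abundant member of each role. The members and all lists were chosen with earlier results of these data known. Alternatives were no batch block, other scalings and filters, summed counts of related pairs, limma 3.58.1 on log2(TPM + 1) and log2(TPM + 0.1), DESeq2 1.42.0 (likelihood-ratio test), the 6 compared libraries alone, and leaving out libraries. Promoters came from RefSeq (GRCm38.p6), with 38 of 50 members matched. Some members enter the counts but are not reported here one by one.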

Additional observations from a re-analysis of the deposited data

How the results depend on the processing

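The pairing by batch mattered for the culture comparisons. Without the replicate block, 23 members were called between the lines in 2D (26 with it), 23 in 3D (24), 0 between the cultures of D2.OR (2), 1 between those of D2A1 (3), and 0 in the interaction (0). With only the 6 libraries compared the numbers were 4 in D2.OR and 0 in D2A1, and with the DESeq2 likelihood-ratio test 4 in D2.OR, 7 in D2A1 and 5 in the interaction. With no filter on low counts 1 member passed the interaction. Over the fits that leave out replicates, calls ranged from 15 to 26 in 2D, with 15 without replicate 2 and 17 without replicate 3, from 17 (without replicate 2) to 28 (without D2A1 2D replicate 1) in 3D, from 0 to 5 in D2.OR culture, from 0 to 19 in D2A1 culture and from 0 to 9 in the interaction. Both highest values of the culture comparisons and that of the interaction came without replicate 1. The cause was not tested. Leaving out a single 2D library lost line calls in 2D that included those of Abca1, Abca3, Abca4, Abca9, Abcb6, Abcc1 and Abcc5, and leaving out a single 3D library lost line calls in 3D that included those of Abca3, Abcb8 and Abcb10. Abcc5 in 2D was also lost without D2A1 3D replicate 2, and Abcb10 in 3D without D2.OR 2D replicate 3. Among called values of single members 0 reversed in any setting. Abcb1a, Abcb1b, Abcg2, Abcc4 and Abcg1 kept their line calls in all settings that gave a value. The depth leaves the size of a fold change uncertain for members with a few counts a library, such as Abcb1b in D2A1, which depends on the setting.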
